A study of Mus musculus with 13 samples.

Results

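Gene expression of mouse lung fibroblasts 14 days after pneumonectomy, the surgical removal of a lung, was compared with that of fibroblasts from sham mice. The pneumonectomy group comprised 3 libraries of sorted primary lung fibroblasts, and the sham group 2 libraries from the lungs of Col1a1-GFP mice aged 8 weeks, in which regulatory sequence of a collagen I gene drives a green fluorescent protein. These 5 libraries were chosen by the group named above each column of the table, out of 13 in the series, whose other 8 came from mice given bleomycin, an agent of lung injury and fibrosis, 14 days (n = 3) or 30 days (n = 5) before. The design text of the series gives all 4 groups the GFP reporter, so that the cells, if sorted by GFP, are those with an active collagen promoter. Neither the sort gate, nor the kind of sham procedure, nor the sex of the mice is given in the labels. The headings of the table call the mice of both groups young, and an age in weeks is given for the sham mice only. Input was 200 ng of total RNA and a TruSeq v2 kit throughout. A micro-scale RNA kit is named for the pneumonectomy libraries only, poly(A) selection by beads and a minimum RNA quality for the sham libraries only, and such differences in preparation cannot be told apart from the effect of pneumonectomy. Nothing in the labels says that libraries of a group came from separate animals, so the p-values measure the spread between libraries. That spread is pooled over all 13 libraries of the 4 groups, which were fitted together.

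When a lung is removed, the remaining lung of a rodent grows and forms new alveoli, the gas-exchanging sacs, and fibroblasts of the alveolar wall take part by laying down elastin, collagens and basement membrane and by secreting growth factors for the epithelium. Fibroblasts are also a source of chemokines, the proteins that attract leukocytes. Many chemokine and cytokine genes are targets of NF-κB, a transcription factor held in the cytoplasm by inhibitors whose own genes it switches on, and of AP-1, a dimer of FOS and JUN type proteins.

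Of 43346 genes in the table, the 12938 with at least 1 RPKM (reads per kilobase of gene, scaled to sequencing depth) in at least 2 of the 13 libraries were tested, 11230 of them protein-coding. Depth, estimated from the smallest steps between values, was about 74800000, 75400000 and 68900000 reads in pneumonectomy libraries A, B and C, against 67600000 and 72000000 reads in sham replicates 1 and 2. At these depths 1 read in a gene of 2 kilobases was worth 0.00663 to 0.00740 RPKM. Sham replicate 1 stood apart by sex-linked genes. Xist, which coats the silenced X chromosome, was at 0.00448, 0.0222 and 0.0146 RPKM after pneumonectomy, against 15.9 and 0.0147 RPKM in sham, and the Y-linked Ddx3y at 21.4, 23.8 and 15.9 RPKM after pneumonectomy, against 2.14 and 11.3 RPKM in sham, so that sham replicate 1 held both. Results that depended on this library, or on any other, are given with and without it. Across genes, Spearman correlations were 0.972 to 0.981 between pneumonectomy libraries and 0.973 between the sham libraries.

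In all, 5430 genes (42% of those tested) were called at an adjusted p under 0.05 with limma and Benjamini-Hochberg adjustment over all tested genes, two-sided. Of these, 2930 were higher (22.6% of those tested) and 2500 lower (19.3%) after pneumonectomy. Changes over 2-fold were seen in 989 higher and 280 lower genes, and over 4-fold in 221 and 32. Below, "rose" and "fell" are used only of called genes. Levels are the deposited RPKM, given for libraries A, B and C and then for sham replicates 1 and 2, and log2 changes, pneumonectomy minus sham, are on the scaled log2(RPKM + 0.1) scale with the standard error of the fit. On the scale as deposited the median of all tested genes lay at -0.21 against 0.01 with scaling, which gave 1762 higher and 5185 lower genes, so that small falls depend on the scaling. Counts of called members are also given on that scale, or without a library, where these move them by more than 1.5 times or move the split between the directions, with the number higher first and the number lower after it. In deposited RPKM the groups did not overlap in 8843 of the tested genes (68.3%), so a lack of overlap is common here. Overlap was judged before the scaling, which divided pneumonectomy values by 0.81 to 0.85 and sham values by 0.96 to 0.97. The share is thus not that on the scale of the test, which was not counted. Without sham replicate 2, 1965 genes were higher and 1359 lower, and without sham replicate 1, 2486 and 1941. As these are bulk libraries, fewer cells of a type and less RNA per cell cannot be told apart.

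The plot of called members by list shows where the calls were concentrated. The lists were written by pathway or family, and each is described by its counts of called members and its median log2 change, which was 0.01 over all tested genes.

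**Figure D1:**
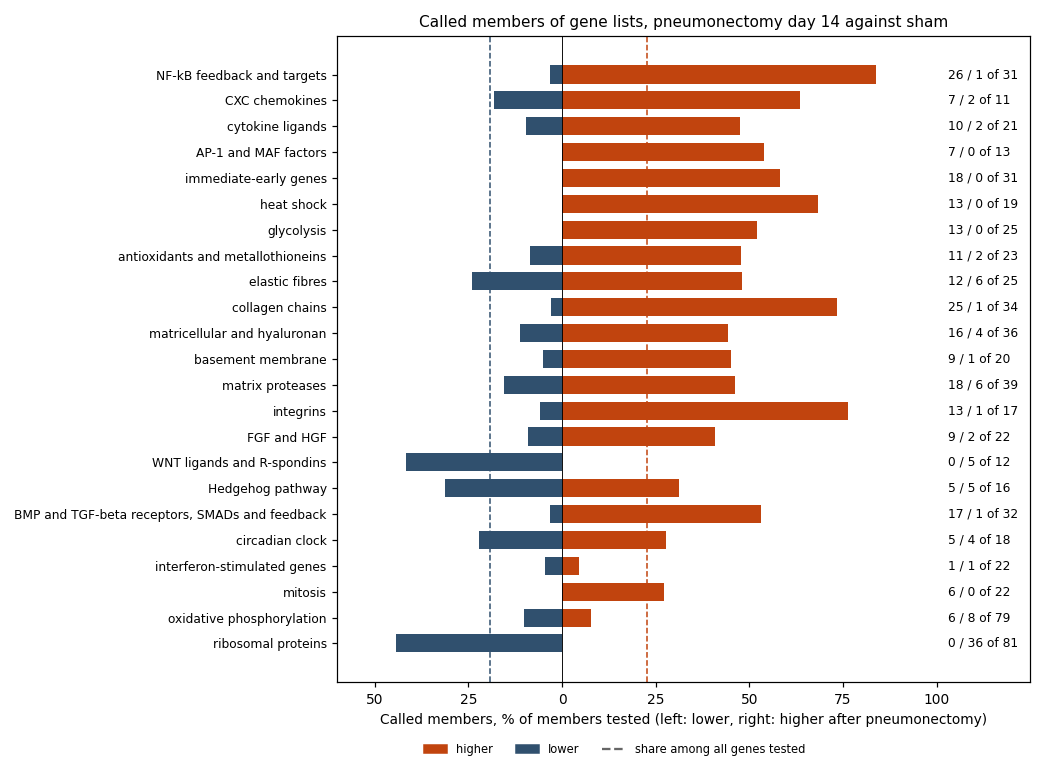
Share of tested members called higher (right, orange) or lower (left, blue) after pneumonectomy for 23 gene lists, in percent, with the counts (higher / lower of tested) beside each bar and the shares among all tested genes as dashed lines (22.6% higher and 19.3% lower). The list of NF-κB feedback and target genes reached 26 of 31 members higher, whereas ribosomal protein genes and WNT ligands had no higher member and 36 of 81 and 5 of 12 lower.

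The 12 genes with the largest rises among those at 5 RPKM or more were of different kinds. They were the chemokines Cxcl2, Ccl2 and Ccl21a, the hexokinase gene Hk2, the matrix genes Tnc and Thbs1, the matrix protease gene Adamts4, the AP-1 gene Fosl1, the growth factor gene Ereg, Rnd1, which encodes a small GTPase of the cytoskeleton, Sele (E-selectin, an adhesion molecule of endothelium) and Msln (mesothelin, a surface protein of mesothelium). Rnd1 was at 11.4, 9.83 and 9.17 RPKM after pneumonectomy, against 1.06 and 0.305 RPKM in sham (log2 change 4.13 ± 0.42, and 4.89 and 3.37 without sham replicates 1 and 2). The largest falls were smaller than the largest rises. They included the WNT ligands Wnt2b and Wnt10b, the secreted WNT antagonist Sfrp4, Pcsk6, a proprotein convertase, Ptgfr, a prostaglandin receptor, Cadm3, an adhesion molecule, and Slco2b1, an organic anion transporter. Pcsk6 was at 5.78, 5.37 and 5.38 RPKM after pneumonectomy, against 29.5 and 29.1 RPKM in sham (-2.17 ± 0.32) and Cadm3 at 1.99, 1.78 and 1.89 RPKM after pneumonectomy, against 9.06 and 11.0 RPKM in sham (-2.13 ± 0.27), each with little spread within a group.

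Genes of NF-κB signalling rose nearly as a whole. Of 31 tested members of the list, 26 were higher and 1 lower (25 and 4 on the deposited scale), with a median log2 change of 1.31, and with any 1 library left out 22 to 26 were higher. Vcam1, an adhesion molecule that binds leukocyte integrins, was at 191, 211 and 140.5 RPKM after pneumonectomy, against 31.7 and 36.6 RPKM in sham (2.61 ± 0.18). Icam1, another such molecule, was at 152, 157 and 115 RPKM after pneumonectomy, against 36.4 and 35.5 RPKM in sham (2.18 ± 0.18). Nfkb1, which encodes the p105 precursor of a subunit of the factor itself, was at 52.2, 66.0 and 34.2 RPKM after pneumonectomy, against 9.40 and 10.8 RPKM in sham (2.50 ± 0.21). In all of these the lowest pneumonectomy library, C, lay more than 2-fold above the higher sham library.

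The inhibitors of the pathway rose along with its targets. Nfkbia, which encodes the inhibitor that holds NF-κB in the cytoplasm, was at 144, 139 and 155 RPKM after pneumonectomy, against 77.6 and 45.9 RPKM in sham (1.51 ± 0.21), and Tnfaip3, which encodes the deubiquitinase A20, at 41.1, 35.5 and 27.8 RPKM after pneumonectomy, against 8.24 and 2.88 RPKM in sham (3.01 ± 0.35, and 3.76 and 2.28 without sham replicates 1 and 2). Birc3, an anti-apoptotic ubiquitin ligase, was at 25.1, 24.1 and 14.3 RPKM after pneumonectomy, against 5.07 and 5.07 RPKM in sham (2.22 ± 0.22). These 3 genes were chosen after their values were seen. Tnip1, a partner of A20, rose by 1.19 ± 0.10 on the log2 scale, Ripk2, a kinase of innate immune signalling, by 1.56 ± 0.10, and Gch1, which makes the cofactor of nitric oxide synthase, by 3.10 ± 0.27. Cflar and Tnip2 were the most abundant members that were not called.

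The promoters of 4 of these inflammatory genes are shown because a κB motif stands close to the start of transcription in each. The sequences are from RefSeq (GRCm38.p6), each with 250 bases before and 50 bases after the start of the gene, written 5′ to 3′ on the gene's own strand. Capitals mark every match to GGGNNNTTCC on either strand, and where 2 matches overlap the run is longer. Cxcl1 (chr5:90890995-90891294, plus strand) and Cxcl2 (chr5:90903649-90903948, plus strand) are neighbours on chromosome 5, Nfkbia lies on chromosome 12 (chr12:55492598-55492897, minus strand) and Il6 on chromosome 5 (chr5:30012864-30013163, plus strand).
Cxcl1: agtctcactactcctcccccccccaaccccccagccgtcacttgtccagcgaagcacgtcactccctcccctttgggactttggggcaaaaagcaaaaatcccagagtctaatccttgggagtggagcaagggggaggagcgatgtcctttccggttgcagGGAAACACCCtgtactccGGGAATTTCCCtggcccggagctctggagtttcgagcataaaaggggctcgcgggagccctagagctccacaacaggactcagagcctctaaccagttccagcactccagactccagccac
Cxcl2: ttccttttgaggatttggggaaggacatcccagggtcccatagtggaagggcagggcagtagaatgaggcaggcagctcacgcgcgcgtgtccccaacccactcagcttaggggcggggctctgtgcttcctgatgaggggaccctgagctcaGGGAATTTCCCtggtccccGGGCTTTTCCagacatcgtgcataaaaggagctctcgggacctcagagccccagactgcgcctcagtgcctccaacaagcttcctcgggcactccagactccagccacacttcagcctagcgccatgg
Nfkbia: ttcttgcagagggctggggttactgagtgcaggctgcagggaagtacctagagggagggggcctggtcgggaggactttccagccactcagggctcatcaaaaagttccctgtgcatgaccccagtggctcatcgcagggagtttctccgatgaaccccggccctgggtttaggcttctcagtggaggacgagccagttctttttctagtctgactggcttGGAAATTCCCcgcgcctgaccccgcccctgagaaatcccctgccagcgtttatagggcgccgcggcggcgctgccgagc
Il6: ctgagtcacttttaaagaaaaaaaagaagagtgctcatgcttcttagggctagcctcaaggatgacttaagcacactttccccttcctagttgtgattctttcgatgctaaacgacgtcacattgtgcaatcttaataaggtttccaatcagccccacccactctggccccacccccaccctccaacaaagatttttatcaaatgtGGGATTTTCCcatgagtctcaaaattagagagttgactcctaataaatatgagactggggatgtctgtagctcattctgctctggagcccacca

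The matches lay between 89 and 61 bases before the start in Cxcl1, between 97 and 69 in Cxcl2, between 29 and 20 in Nfkbia and between 44 and 35 in Il6. The match GGGAATTTCC stands in both chemokine promoters. Of the 26 higher members of the NF-κB list, 20 had a promoter in the RefSeq table, and 7 of these (35%) held the motif (Nfkbia, Nfkbid, Nfkbie, Nfkb2, Rel, Tnfaip3 and Tnip1). Of the 4 members that were not called 1 held it (25%), Cyld, and the 1 lower member did not. The motif also stood in 3 of the 5 higher CXC chemokines with a promoter (Cxcl1, Cxcl2 and Cxcl10). The motif was held by 6.31% of all 27025 genes in the table. Among tested genes it was held by 8.28% of those higher after pneumonectomy, 6.67% of those lower and 6.99% of those not called. The AP-1 motif TGANTCA, which reads the same on both strands, stood between 249 and 243 bases before the start of Il6, apart from its κB match. It stood in 4 of the 6 higher cytokine genes with a promoter (Il6, Lif, Il11 and Tnfsf13b). Of the higher members with a promoter in the other lists, 3 of 20 NF-κB genes, 1 of 5 CXC and 0 of 1 CC chemokines held it. It was held by 8.97% of all genes of the table. Among tested genes it was held by 7.72% of those higher, 5.08% of those lower and 6.21% of those not called. The list was written of NF-κB feedback and target genes, and the 4 promoters were shown for their motif, so these shares are no test of the rise. A match is a description of the sequence and does not show binding.

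Chemokine genes of both large families held strong rises. Of 11 tested CXC family genes (with Cx3cl1), 7 were higher and 2 lower (7 and 1 without sham replicate 2, library B or library C), with a median log2 change of 2.12. Cxcl1, a neutrophil attractant, was the most abundant, at 624, 616 and 342 RPKM after pneumonectomy, against 124 and 88.2 RPKM in sham (2.50 ± 0.40). Cxcl2, a close relative, was at 59.2, 40.0 and 35.3 RPKM after pneumonectomy, against 3.20 and 1.19 RPKM in sham (4.64 ± 0.36, and 5.32 and 3.96 without sham replicates 1 and 2). In both genes every pneumonectomy library was above every sham library, and library C was the lowest of the 3. Cxcl5 (3.38) and Cxcl10 (3.40) rose by a similar amount on the log2 scale, Cxcl5 from sham levels of 0.134 and 0.151 RPKM, and Cxcl14, Cx3cl1 and Cxcl16 rose by 2.12, 1.45 and 0.90. Cxcl12, which retains leukocytes and progenitors through the receptor CXCR4, moved the other way. It was at 13.2, 9.79 and 9.17 RPKM after pneumonectomy, against 16.6 and 19.8 RPKM in sham (-0.55 ± 0.18, adjusted p = 0.0321 in limma), a call lost without sham replicate 2 (-0.42), library B (-0.52) or library C (-0.44). Pf4, a platelet chemokine, was under 1 RPKM in all 5 libraries. Cxcl13 and Cxcl15 were not called.

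Of 11 tested CC chemokines, 3 were higher and none lower. The monocyte attractants Ccl2 and Ccl7 were at 126, 115 and 83.1 RPKM and 95.3, 98.2 and 44.4 RPKM after pneumonectomy, against 8.48 and 7.57 RPKM and 12.5 and 8.79 RPKM in sham (log2 changes 3.94 ± 0.27 and 3.04 ± 0.40). Ccl21a, which guides dendritic cells and lymphocytes, was at 9.14, 14 and 8.22 RPKM after pneumonectomy, against 0.714 and 0.287 RPKM in sham (4.42 ± 0.40). The eosinophil attractant Ccl11, at 51.1, 70.2 and 39.7 RPKM after pneumonectomy, against 72.2 and 111 RPKM in sham, was not called. In deposited RPKM libraries A to C all lay below the lower sham library, but on the scaled values of the test library B lay above sham replicate 1. With 3 of 11, the share of CC genes that were higher was near the 22.6% of all tested genes, so that the large changes were those of single genes.

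Lif, Il6 and Il11, cytokines whose receptors share the chain gp130, rose with the chemokines. Of 21 tested cytokine ligands, 10 were higher and 2 lower. Lif, leukaemia inhibitory factor, was at 43.4, 51.1 and 26.3 RPKM after pneumonectomy, against 3.01 and 3.85 RPKM in sham (3.69 ± 0.31), and Il6, chosen after its values were seen, at 302, 315 and 123 RPKM after pneumonectomy, against 59.4 and 29.2 RPKM in sham (2.67 ± 0.60). Without sham replicate 2, Il6 was no longer called (2.16, adjusted p = 0.0553 in limma). Il11 and Csf3, the granulocyte growth factor gene, rose by 3.15 ± 0.34 and 3.44 ± 0.28 from sham levels of 0.401 and 0.251 and 0.0733 and 0.0885 RPKM, so that with a pseudocount of 1 in place of 0.1 their log2 changes were 1.83 and 1.43. Of 30 cytokine receptor and STAT genes 12 were higher, 3 lower (9 and 0 without sham replicate 2, 9 and 5 on the deposited scale) and 15 not called, among them Il1r1 (-0.05) and Socs3 (-0.03). Osmr, a receptor chain for oncostatin M, rose by 1.34 ± 0.15, and Stat3, the factor these receptors activate, was at 21.3, 23.1 and 19.1 RPKM after pneumonectomy, against 10.9 and 10.2 RPKM in sham (1.22 ± 0.10). Cish, an inhibitor of STAT signalling, and the kinases Jak1 and Jak2 rose by 1.63, 0.62 and 0.93. Il33, an alarmin stored in the nucleus, fell to 13.7, 12.1 and 8.92 RPKM after pneumonectomy, against 46.3 and 36.6 RPKM in sham (-1.63 ± 0.24). The plot of inflammatory genes by library shows these levels.

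**Figure D2:**
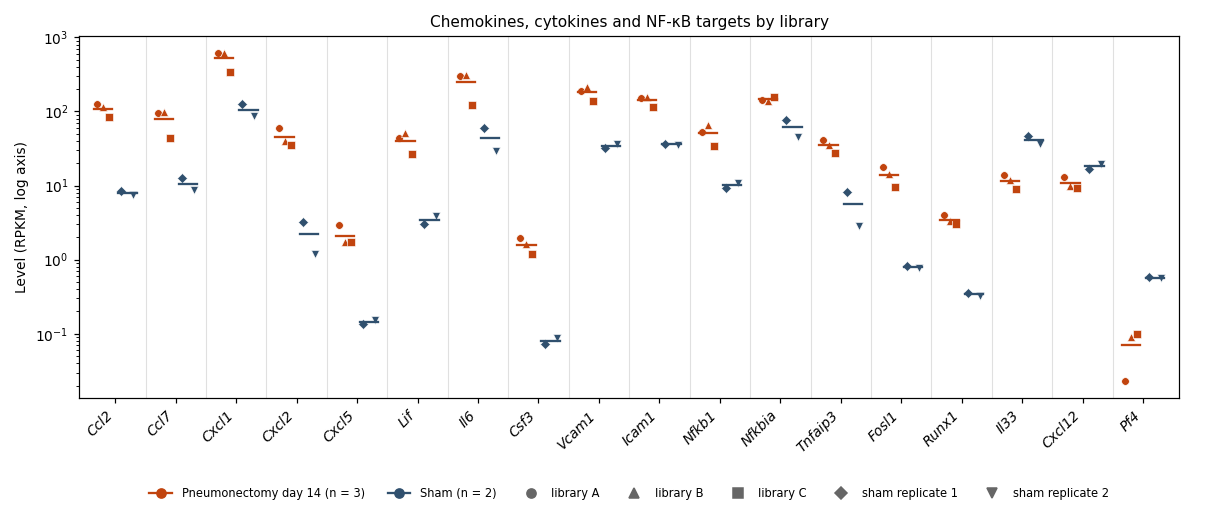
Level of 18 chemokine, cytokine and NF-κB related genes in RPKM (log axis) in each pneumonectomy library (orange, left in each pair, n = 3) and each sham library (blue, right, n = 2), with symbols for the libraries and bars for group means. In deposited RPKM the groups do not overlap for any gene shown, as in 68.3% of all tested genes, and Il33, Cxcl12 and Pf4 lie lower after pneumonectomy.

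Complement and acute-phase genes were split, with 10 of 23 tested members higher and 4 lower (6 and 0 without sham replicate 2, 10 and 2 without library A, 8 and 1 without library C, 9 and 6 on the deposited scale). Saa3, serum amyloid A3, was at 12.8, 6.99 and 5.71 RPKM after pneumonectomy, against 0.919 and 0.627 RPKM in sham (3.46 ± 0.33). Cfi, a complement inhibitor, and Cp, ceruloplasmin, rose by 2.35 ± 0.30 and 1.31 ± 0.21. Ptx3, a soluble pattern recognition protein, was at 96.5, 66.4 and 30.8 RPKM after pneumonectomy, against 17.6 and 11.7 RPKM in sham (2.24 ± 0.57), with library A highest, and it was no longer called without sham replicate 2 (1.95). C7 and C1s1 were abundant members that were not called. Of 22 interferon-stimulated genes, 1 was higher and 1 lower in limma (0 and 4 without sham replicate 1, 1 and 0 without sham replicate 2, 1 and 6 on the deposited scale), with a median of 0.11.

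Transcription factor genes of the AP-1 family changed unequally. Fosl1, which encodes the FOS relative FRA1, was at 17.9, 14.5 and 9.48 RPKM after pneumonectomy, against 0.824 and 0.774 RPKM in sham (4.15 ± 0.22). Maff, Fosl2 and Mafk rose by 2.36 ± 0.31, 1.76 ± 0.24 and 1.30 ± 0.21. The most abundant members of the family did not pass the test, with Fos at 423, 342 and 425 RPKM after pneumonectomy, against 726 and 279.8 RPKM in sham and Junb at 358, 349 and 319 RPKM after pneumonectomy, against 417 and 157 RPKM in sham, where the spread between the 2 sham libraries was wider than any difference between the groups. Of 13 tested members 7 were higher and none lower (11 and 0 without sham replicate 1).

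Among 31 immediate-early genes, which respond within minutes to stimuli and to tissue dissociation, 18 were higher and none lower (18 and 1 without library C), with a median of 0.89. Nr4a3, an orphan nuclear receptor gene, was at 136, 143 and 78.2 RPKM after pneumonectomy, against 20.4 and 12.4 RPKM in sham (3.07 ± 0.37), and Ier5, Btg1, Gadd45a and Gadd45b rose by 1.98, 1.92, 1.76 and 1.72. Egr1, at 312, 288 and 317 RPKM after pneumonectomy, against 489 and 300.5 RPKM in sham, and Zfp36 were not called. Of 19 heat shock genes, 13 were higher and none lower (7 and 0 without sham replicate 2, 11 and 1 without library B, 8 and 1 on the deposited scale). The small chaperone gene Hspb1 was at 90.4, 76.7 and 101 RPKM after pneumonectomy, against 40.5 and 16.4 RPKM in sham (2.00 ± 0.35, and 2.65 and 1.36 without sham replicates 1 and 2), and the co-chaperone gene Bag3 and the HSP110 gene Hsph1 rose by 1.60 ± 0.23 and 1.72 ± 0.31. The called stress and immediate-early genes and the NF-κB targets rose in the same comparison, but their summed levels differed in pattern. In deposited RPKM the immediate-early list summed to 2803, 2481 and 2221 after pneumonectomy, against 2426 and 1216 in sham. Sham replicate 1 thus lay above library C. The NF-κB list summed to 1143, 1173 and 909 RPKM, against 456 and 332 RPKM, without overlap. The part of cell isolation in these rises was not tested.

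Genes of oxidative defence and of sugar uptake rose by large amounts at their control points. Hmox1, haem oxygenase 1, was at 44.8, 37.6 and 39.1 RPKM after pneumonectomy, against 6.48 and 6.30 RPKM in sham (2.86 ± 0.16), and Txnrd1, thioredoxin reductase, at 33.7, 36.9 and 25.1 RPKM after pneumonectomy, against 10.4 and 8.67 RPKM in sham (1.94 ± 0.16). Srxn1, sulfiredoxin, rose by 1.19 ± 0.19. Of 23 tested members of that list 11 were higher and 2 lower (9 and 1 without sham replicate 2, 12 and 1 without library C, 9 and 5 on the deposited scale). Hk2, the inducible hexokinase, was at 48.9, 52.1 and 29.1 RPKM after pneumonectomy, against 3.03 and 1.27 RPKM in sham (4.57 ± 0.37, and 5.17 and 3.98 without sham replicates 1 and 2). The glucose transporter Slc2a1, the lactate transporter Slc16a1 and the regulatory enzyme Pfkfb3 rose by 2.60 ± 0.22, 1.42 ± 0.21 and 1.07 ± 0.14. The median over 25 glycolytic genes was 0.27, with 13 higher and none lower (8 and 0 without sham replicate 2, 8 and 0 on the deposited scale). Gpi1 and Tpi1 were not called. Hif1a, the oxygen-regulated factor, rose by 1.16 ± 0.09, while Vegfa, one of its targets, was at 14.9, 13.9 and 13.4 RPKM after pneumonectomy, against 14 and 14.2 RPKM in sham and was not called.

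Glucocorticoid-responsive and damage-responsive genes included single strong rises. Sgk1, a serum and glucocorticoid regulated kinase, was at 40.0, 38.4 and 35.4 RPKM after pneumonectomy, against 10.9 and 9.41 RPKM in sham (2.11 ± 0.11), and Cebpb, a transcription factor of acute-phase genes, rose by 1.94 ± 0.17. The glucocorticoid list had 7 of 17 members higher and 1 lower (10 and 3 without sham replicate 1, 3 and 1 without sham replicate 2, 7 and 2 without library C, 6 and 3 on the deposited scale). Of 28 G1 regulators and p53 targets, 12 were higher and 3 lower (9 and 7 on the deposited scale). Cdkn1a, the cell cycle inhibitor p21, rose by 1.48 ± 0.13, Plk2, a stress-induced kinase, by 2.42 ± 0.26, and Gdf15, a stress-induced cytokine, by 1.91 ± 0.20.

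Genes of cell division were at low levels in both groups. Of 22 mitosis genes 6 were higher and none lower (2 and 0 without sham replicate 1), and of 24 DNA replication genes 6 were higher and 3 lower (4 and 6 on the deposited scale). Mki67, a marker of dividing cells, was at 0.344, 0.406 and 0.344 RPKM after pneumonectomy and at 5.45 ± 0.656 RPKM (SD, n = 3) at day 14 after bleomycin, against 0.0970 and 0.153 RPKM in sham. Its rise of 1.25 ± 0.30 was lost without sham replicate 1 (1.06). It was thus under 1 RPKM in every pneumonectomy and sham library.

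Elastic fibre genes divided into those that rose and those that fell. Of 26 genes in the list, 25 were tested, and 12 of these were higher, 6 lower and 7 not called (10 and 2 without sham replicate 2, 9 and 9 on the deposited scale), with a median of 0.29. Eln, elastin itself, was at 2078, 1680.5 and 2544 RPKM after pneumonectomy, against 343 and 357 RPKM in sham (2.79 ± 0.36). Lox, which crosslinks elastin and collagen, was at 77.2, 59.3 and 60.1 RPKM after pneumonectomy, against 15.7 and 19.6 RPKM in sham (2.11 ± 0.27). Ltbp2, a latent TGF-beta binding protein relative of elastic fibres, was at 13.8, 14.1 and 19.3 RPKM after pneumonectomy, against 2.67 and 2.46 RPKM in sham (2.78 ± 0.36). All 3 stood at least 3-fold above the higher sham library in every pneumonectomy library.

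Mfap4, a microfibril-associated protein that binds elastin, was at 499, 435 and 489 RPKM after pneumonectomy, against 196 and 206 RPKM in sham (1.46 ± 0.19). Adamtsl2, which binds the microfibril protein fibrillin, was at 27.2, 24.6 and 36.8 RPKM after pneumonectomy, against 8.82 and 10.1 RPKM in sham (1.83 ± 0.25). Emilin1 and Ltbp3 rose by 0.76 and 0.60. The scaffold gene Fbn1 and the fibulin Fbln5, which links elastin to cells, were not called, and neither were Mfap5 and Ltbp4. Emilin2 fell to 7.04, 8.00 and 8.51 RPKM after pneumonectomy, against 33.7 and 32.5 RPKM in sham (-1.85 ± 0.26). The fibulins Efemp1, Fbln2 and Fbln1 were lower (log2 changes -0.90, -0.81 and -0.80), but without sham replicate 2 none of these 3 was called (-0.72, -0.74 and -0.85). Fbn2, a fibrillin of developing tissue, was under 1 RPKM in all 5 libraries, and its call was lost with a pseudocount of 1 (0.41).

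**Figure D3:**
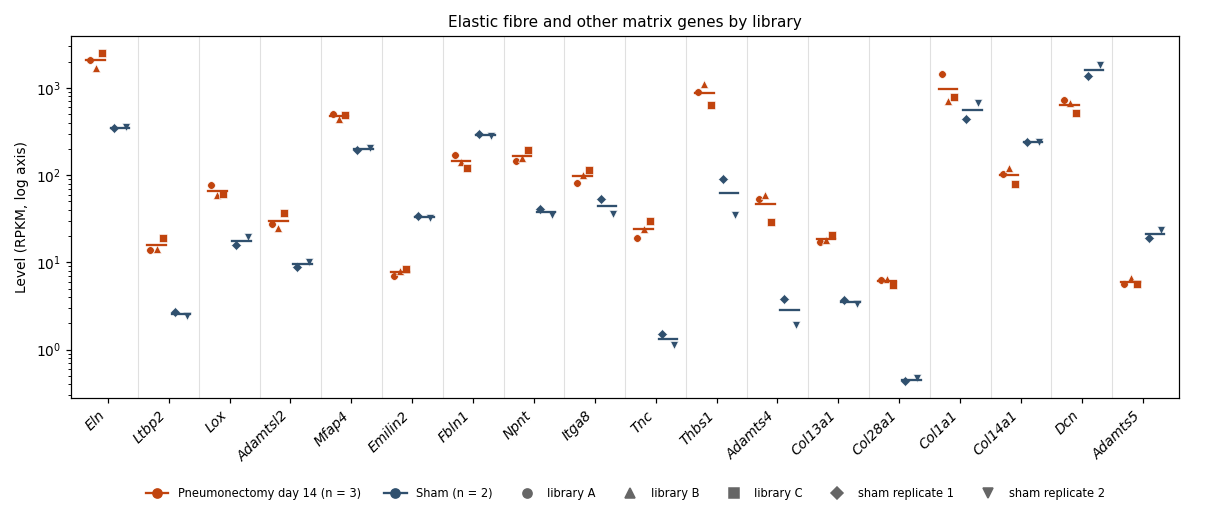
Level of 18 matrix genes in RPKM (log axis) in each pneumonectomy library (orange, left in each pair, n = 3) and each sham library (blue, right, n = 2), with symbols for the libraries and bars for group means. Eln was at 1680.5 to 2544 RPKM in the pneumonectomy libraries and at 343 and 357 RPKM in the sham libraries, while Col1a1 in libraries B and C lay near the higher sham library.

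Collagen genes rose widely. Of 34 tested collagen chains 25 were higher and 1 lower (19 and 0 without sham replicate 1, 23 and 0 without sham replicate 2), with a median of 1.31. Col13a1, a transmembrane collagen of alveolar fibroblasts, was at 17.3, 17.9 and 20.9 RPKM after pneumonectomy, against 3.69 and 3.34 RPKM in sham (2.60 ± 0.09). Col28a1, a beaded-filament type collagen, was at 6.29, 6.42 and 5.51 RPKM after pneumonectomy, against 0.433 and 0.474 RPKM in sham (3.71 ± 0.23). In both, the pneumonectomy libraries lay close together and none came near sham. The basement membrane chains Col4a1, Col4a2 and Col4a5 rose by 1.45 ± 0.20, 1.69 ± 0.21 and 1.40 ± 0.14.

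Genes of cartilage matrix stood out in library A, beside this collagen count. Col2a1, the collagen of cartilage, was at 10.2, 0.436 and 2.95 RPKM after pneumonectomy, against 0.0272 and 0.0232 RPKM in sham, Col10a1, of growing cartilage, at 5.24, 0.106 and 0.352 RPKM after pneumonectomy, against 0.0331 and 0.0133 RPKM in sham, and Comp, a cartilage matrix protein, at 7.19, 0.815 and 0.802 RPKM after pneumonectomy, against 0.281 and 0.258 RPKM in sham. Acan, the cartilage proteoglycan aggrecan, was at 3.15, 0.177 and 0.963 RPKM after pneumonectomy, against 0.0564 and 0.00378 RPKM in sham. Library A was highest in each, and Col2a1 rose (4.60 ± 0.85, and 3.59 without library A). Comp was called (2.52 ± 0.90), but not without library A (1.5) or without sham replicate 1 (2.57) or 2 (2.48). Col10a1 was not called, and Acan was under the minimum level for the test. These 4 genes were chosen after their values were seen, and the part of cartilage RNA in the collagen count was not tested.

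Col1a1, whose promoter drives the reporter, was at 1427, 707 and 783 RPKM after pneumonectomy, against 437 and 670.0 RPKM in sham (0.99 ± 0.31, adjusted p = 0.0227 in limma). Library A alone stood well above both sham libraries, and the call was lost without library A (0.66) or without sham replicate 1 (0.69). Col14a1, a fibril-associated collagen and the 1 lower chain, was at 104, 119 and 78.8 RPKM after pneumonectomy, against 237 and 241 RPKM in sham (-1.04 ± 0.29), a call lost without sham replicate 1 (-1.05) or 2 (-1.03). It was chosen after its values were seen, as the only lower member. Among 24 genes of collagen processing 11 were higher and none lower (7 and 1 without sham replicate 1, 10 and 1 without library A, 6 and 5 on the deposited scale). P4ha3, a subunit of prolyl hydroxylase, rose by 2.50 ± 0.40, while Serpinh1, the collagen chaperone, and P4ha1 were not called.

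Matricellular genes, whose products modify how cells meet the matrix, held some of the largest changes. Thbs1, thrombospondin 1, which can activate latent TGF-beta, was at 904, 1107 and 644 RPKM after pneumonectomy, against 91.2 and 34.9 RPKM in sham (4.16 ± 0.35, and 4.85 and 3.47 without sham replicates 1 and 2). Tnc, tenascin C, was at 19.1, 23.9 and 30.1 RPKM after pneumonectomy, against 1.5 and 1.14 RPKM in sham (4.32 ± 0.41). Cd44, the hyaluronan receptor, rose by 1.79 ± 0.19, and Postn, periostin, by 1.32 ± 0.24. Dcn, the proteoglycan decorin, was lower at 726, 666 and 515 RPKM after pneumonectomy, against 1382 and 1856 RPKM in sham (-1.13 ± 0.25), a call lost without sham replicate 2 (-0.91). Of 36 tested members 16 were higher and 4 lower (13 and 0 without sham replicate 2).

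A basement membrane ligand and both chains of its integrin rose. Npnt, nephronectin, was at 145, 157 and 192 RPKM after pneumonectomy, against 41.1 and 34.7 RPKM in sham (2.33 ± 0.12), and Itga8, the chain of its integrin receptor, at 81.8, 100.2 and 114 RPKM after pneumonectomy, against 53.2 and 35.8 RPKM in sham (1.39 ± 0.19). Itgb1, the partner chain, rose by 0.82 ± 0.11, and Lamc3 and Agrn, a laminin chain and agrin, by 2.19 ± 0.23 and 0.91 ± 0.16. Ntn4, netrin 4, which disturbs laminin networks, fell by 0.83 on the log2 scale. Of 17 integrin chains 13 were higher and 1 lower (10 and 0 without sham replicate 1, 6 and 2 without sham replicate 2, 9 and 2 on the deposited scale). Of 20 basement membrane genes 9 were higher and 1 lower (8 and 2 without sham replicate 1, 7 and 5 on the deposited scale).

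Proteases of the ADAMTS family moved in opposite directions. Adamts4, an aggrecanase, was at 53.3, 59.5 and 29.0 RPKM after pneumonectomy, against 3.78 and 1.91 RPKM in sham (4.24 ± 0.36). Adamts5, another aggrecanase, fell to 5.64, 6.70 and 5.67 RPKM after pneumonectomy, against 18.9 and 23.8 RPKM in sham (-1.59 ± 0.16). In neither gene did a library of 1 group come near the other group. Adamts17, Adamts9 and Adamts8 rose by 3.75 ± 0.23, 2.50 ± 0.24 and 1.44 ± 0.16. In the whole protease list 18 of 39 members were higher and 6 lower (11 and 5 without sham replicate 1, 14 and 8 on the deposited scale). Of the inhibitors, Tfpi2 and Serpine2 rose by 2.39 ± 0.22 and 1.36 ± 0.24. In the inhibitor list 10 of 19 were higher and 2 lower (8 and 1 without sham replicate 2, 6 and 3 without library A, 7 and 5 on the deposited scale).

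Growth factor genes rose selectively. Hgf, hepatocyte growth factor, which acts on epithelium, was at 9.80, 12.3 and 7.82 RPKM after pneumonectomy, against 2.88 and 2.93 RPKM in sham (1.95 ± 0.23). The FGF receptor Fgfr4 was at 10.2, 10.2 and 13 RPKM after pneumonectomy, against 1.99 and 2.37 RPKM in sham (2.52 ± 0.13), and Fgfr3 rose by 1.89 ± 0.20. The FGF feedback inhibitors Spry4 and Spry1 rose by 1.32 ± 0.13 and 0.76 ± 0.08. Fgf7, keratinocyte growth factor, was at 9.93, 9.53 and 8.98 RPKM after pneumonectomy, against 8.07 and 8.78 RPKM in sham and was not called, although the groups did not overlap. Fgf10, which acts on alveolar epithelium, was higher by 0.78 ± 0.18, a call lost without sham replicate 1 (0.64). In all, 9 of 22 FGF and HGF genes were higher and 2 lower (7 and 1 without sham replicate 1, 8 and 1 without sham replicate 2, 8 and 7 on the deposited scale). Of the EGF family, Ereg (epiregulin) and Areg (amphiregulin) rose by 3.83 ± 0.34 and 3.46 ± 0.42 from under 1 RPKM in sham (2.56 and 1.40 with a pseudocount of 1), and Hbegf rose by 1.27 ± 0.18. Of 8 tested EGF family genes 6 were higher and 1 lower (3 and 1 without sham replicate 2, library A or library B).

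In the insulin-like growth factor axis, 8 of 15 genes were higher and 5 lower (7 and 3 without sham replicate 1 or library A, 7 and 1 without sham replicate 2). Igf1 was at 20.0, 16.8 and 19.1 RPKM after pneumonectomy, against 8.83 and 12.3 RPKM in sham (1.05 ± 0.23), Irs2, an adaptor of the insulin receptor, rose by 1.98 ± 0.23, and the binding protein genes diverged, with Igfbp7 at 0.85 ± 0.13 and Igfbp4 at -1.03 ± 0.21. Of 24 PDGF and vessel growth factor genes 7 were higher, 1 lower (8 and 2 without library B, 5 and 4 on the deposited scale) and 16 not called, a share of rises near that of all tested genes. Angpt2 and Angpt1, which act on the endothelial receptor TIE2, rose by 1.40 ± 0.26 and 0.78 ± 0.13, and the co-receptor Nrp2 by 1.48 ± 0.16.

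Several WNT ligand genes fell and none rose. Of 12 tested ligands and R-spondins, 5 were lower, with a median of -0.39, and 4 to 6 were lower with 1 library left out (1 higher without library B). Wnt2b, a ligand of the beta-catenin branch, was at 0.913, 1.54 and 0.748 RPKM after pneumonectomy, against 6.80 and 8.27 RPKM in sham (-2.56 ± 0.32). Wnt10b was at 0.733, 1.14 and 0.678 RPKM after pneumonectomy, against 5.88 and 5.68 RPKM in sham (-2.46 ± 0.21). Wnt5a, a ligand that can act without beta-catenin, was at 3.32, 3.47 and 3.75 RPKM after pneumonectomy, against 12.3 and 8.89 RPKM in sham (-1.34 ± 0.13). In all 3 the pneumonectomy libraries lay well below both sham libraries. Wnt9a and Wnt11 were lower (log2 changes -0.76 and -0.63), the call of Wnt11 being lost without sham replicate 1 (-0.53), and Wnt2 and Rspo1, the most abundant of the others, were not called. Among receptors and antagonists, Sfrp4 fell to 10.7, 8.98 and 5.70 RPKM after pneumonectomy, against 54.9 and 43.7 RPKM in sham (-2.35 ± 0.32), and the receptor Fzd4 fell by 1.81 on the log2 scale. Notum, an enzyme that inactivates WNT ligands, and the receptors Ror2 and Fzd8 rose by 2.62 ± 0.35, 1.17 ± 0.16 and 1.18 ± 0.14. Axin2, a feedback gene of the beta-catenin branch that was chosen after its values were seen, was at 2.23, 2.15 and 2.53 RPKM after pneumonectomy, against 2.09 and 3.02 RPKM in sham and was not called. In the list of antagonists and receptors 11 of 27 were higher and 4 lower (5 and 2 without sham replicate 2, 9 and 7 on the deposited scale).

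Hedgehog pathway genes were called in both directions, with 5 of 16 higher and 5 lower (4 and 2 without sham replicate 2, 4 and 3 without library A, 5 and 3 without library C, 2 and 7 on the deposited scale). Scube2, which releases the ligand from cells, was at 10.9, 9.52 and 14.9 RPKM after pneumonectomy, against 2.36 and 3.60 RPKM in sham (2.17 ± 0.21), and Scube1 rose by 1.68 ± 0.39. Cdon, a co-receptor, and Disp1, which exports the ligand, were lower (log2 changes -1.14 ± 0.19 and -1.08 ± 0.12). The receptor Ptch1, itself a target, was at 6.02, 6.53 and 5.73 RPKM after pneumonectomy, against 8.39 and 9.34 RPKM in sham and was not called, and neither were Smo, Hhip and Gli3. The target Gli1 was lower (-0.53 ± 0.18), a call lost without sham replicate 2 (-0.32), library A (-0.56) or library C (-0.39).

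Feedback repressors of TGF-beta and BMP signalling rose with several ligands. Smad7, which blocks the receptors, was at 22.9, 21.5 and 18.3 RPKM after pneumonectomy, against 5.37 and 5.74 RPKM in sham (2.11 ± 0.15). The co-repressors Tgif1, Tgif2 and Skil rose by 2.33 ± 0.14, 1.90 ± 0.17 and 1.63 ± 0.15, and the ligand Tgfb1 by 1.03 ± 0.15. Of 32 receptors, SMADs and feedback genes 17 were higher and 1 lower (12 and 0 without sham replicate 2, 15 and 0 without library A, 16 and 0 without library B, 10 and 6 on the deposited scale). Of the BMP ligands, Bmp5, Bmp3 and Bmp2 rose by 1.61 ± 0.15, 1.60 ± 0.24 and 1.38 ± 0.24. Of 18 Notch pathway genes 11 were higher and 1 lower (4 and 1 without sham replicate 2). Notch1 rose by 1.09 ± 0.13, whereas the ligand Jag1 was lower (-0.52 ± 0.10).

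Among transcription factors of lung mesenchyme, 13 of 33 were higher and 8 lower (11 and 5 without sham replicate 2, 11 and 11 on the deposited scale). Runx1, a factor of blood and activated fibroblasts, was at 3.97, 3.37 and 3.07 RPKM after pneumonectomy, against 0.358 and 0.327 RPKM in sham (3.23 ± 0.26). Tbx4, which marks lung mesenchyme from the embryo on, rose by 1.54 ± 0.22, while Osr1 and Prrx1, further mesenchymal factors, fell (log2 changes -1.38 and -0.88). Tcf21, a factor of alveolar fibroblasts, was at 32.5, 33.2 and 33.7 RPKM after pneumonectomy, against 37.2 and 35.8 RPKM in sham and was not called. Deposited levels of Pdgfra (61.4, 63.1 and 75.3 RPKM after pneumonectomy, against 58.6 and 70.4 RPKM in sham) and Pdgfrb (30.9, 27.9 and 34.0 RPKM, against 30.2 and 31.1 RPKM) overlapped between the groups, and neither gene was called. On the scaled values of the test, the pneumonectomy libraries of Tcf21, Pdgfra and Pdgfrb lay above both sham libraries.

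Enzymes that make retinoic acid moved in opposite directions. Aldh1a1 was at 70.0, 69.1 and 88.4 RPKM after pneumonectomy, against 18.8 and 36.1 RPKM in sham (1.75 ± 0.24), while its relatives Aldh1a2 and Aldh1a3 fell (log2 changes -1.16 and -1.80). Of 19 retinoid genes 3 were higher and 5 lower (2 and 8 on the deposited scale). The lipid genes Ces1d, a carboxylesterase of lipid-storing fibroblasts, and Gpam, which starts triglyceride synthesis, rose by 1.69 ± 0.11 and 0.87 ± 0.15. Sterol and fatty acid synthesis genes had 13 of 28 members higher and 1 lower (3 and 0 without sham replicate 2, 7 and 2 on the deposited scale).

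Clock genes were partly shifted. Nfil3, a repressor of clock output genes, was at 31.3, 27.8 and 20.4 RPKM after pneumonectomy, against 4.60 and 4.47 RPKM in sham (2.72 ± 0.18), and Bhlhe40 and Cry1, further repressors, rose by 1.36 ± 0.24 and 1.14 ± 0.11. Bhlhe41 and Per3 fell (log2 changes -1.41 and -0.99). Arntl, the activator BMAL1, was higher by 1.14 ± 0.29, a call lost without sham replicate 1 (0.74). The core genes Per1, Per2, Nr1d1, Nr1d2, Clock, Cry2 and Dbp were not called. In total 5 of 18 were higher and 4 lower (5 and 2 without sham replicate 1, 4 and 6 on the deposited scale), near the shares of all tested genes. The time of day of tissue collection is not given in the labels.

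Genes of prostaglandin and cyclic nucleotide signalling were called in both directions. Of 15 prostaglandin genes 4 were higher and 3 lower (2 and 2 without sham replicate 2, 2 and 4 on the deposited scale), near the shares of all tested genes. Ptgs2, the inducible cyclooxygenase, was at 134, 141 and 70.7 RPKM after pneumonectomy, against 55.1 and 33.2 RPKM in sham (1.58 ± 0.43), a call lost without sham replicate 2 (1.23). Ptgfr, the receptor of prostaglandin F2 alpha, fell to 3.77, 3.29 and 2.82 RPKM after pneumonectomy, against 14.1 and 16.1 RPKM in sham (-1.95 ± 0.31), and Pla2g4a, a phospholipase that frees arachidonic acid, fell by 1.37 on the log2 scale. The phosphodiesterase Pde4b and the G protein regulator Rgs2 rose by 2.25 ± 0.33 and 1.75 ± 0.25. Of 27 cyclic nucleotide genes 14 were higher and 3 lower (9 and 2 without sham replicate 2, 9 and 4 on the deposited scale), with a median of 0.63. Of 35 guidance genes 16 were higher and 6 lower (11 and 3 without sham replicate 2, 13 and 10 on the deposited scale). Slit2 and its receptor gene Robo2 rose by 2.06 ± 0.20 and 1.45 ± 0.20.

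Ribosomal protein genes were lower by small amounts, and their count depended on the scaling and on single libraries. Of 81 ribosomal protein genes none was higher and 36 were lower, with a median of -0.31. There were 6 lower genes without sham replicate 2, 19 without sham replicate 1, 20 without library C and 68 on the deposited scale. Oxidative phosphorylation genes had a median of -0.06, with 6 higher and 8 lower of 79 (6 and 1 without sham replicate 1, 4 and 2 without sham replicate 2, 6 and 3 without library C, 3 and 47 on the deposited scale).

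Whether a level after pneumonectomy differed from that after bleomycin was tested as pneumonectomy minus bleomycin in the same fit, in which 9158 genes (70.8% of those tested) were called at day 14 and 7449 (57.6%) at day 30. Cell type markers also differed between these groups. Macrophage sums were 42.4 to 66.7 RPKM after pneumonectomy, against 186 to 614 RPKM at day 14 and 273 to 880 RPKM at day 30 after bleomycin, and endothelial sums were 56.4 to 103 RPKM, against 521 to 987 RPKM and 56.5 to 72.7 RPKM. Smooth muscle sums were 1198 to 1611 RPKM, against 518 to 650.5 RPKM and 474 to 718 RPKM. Airway epithelial sums were 42.9 to 471 RPKM, against 24.6 to 31.1 RPKM and 33.7 to 211 RPKM. The part of these cells in the differences below was not tested. Ccl2, Cxcl1, Hk2, Hmox1 and Fosl1 were higher after pneumonectomy than in either bleomycin group. Ccl2 was at 108 ± 22.4 RPKM after pneumonectomy (SD, n = 3), against 13.4 ± 2.90 at day 14 after bleomycin (n = 3) and 14.7 ± 3.72 at day 30 (n = 5), with log2 differences of 3.46 ± 0.25 and 3.23 ± 0.22. For Cxcl1 the differences were 4.69 ± 0.36 and 2.77 ± 0.32, for Hk2 4.79 ± 0.33 and 4.48 ± 0.29, for Hmox1 2.08 ± 0.14 and 2.46 ± 0.13 and for Fosl1 2.79 ± 0.20 and 4.10 ± 0.18. All of these were called. The summed level of the glycolysis list in deposited RPKM was 275 to 287 RPKM after pneumonectomy, against 403 to 445 RPKM at day 14 and 221 to 257 RPKM at day 30 after bleomycin. These sums are unscaled and cannot be set beside the log2 differences. For the latter, values were divided by 0.81 to 0.85 after pneumonectomy and by 1.10 to 1.18 at day 14 after bleomycin, which narrows the gap. Npnt, Fgfr4 and Itga8 were also higher after pneumonectomy. Npnt was at 165 ± 24.6 RPKM after pneumonectomy, against 41.2 ± 2.33 and 44.1 ± 3.49 RPKM at days 14 and 30 after bleomycin (2.46 ± 0.11 and 2.23 ± 0.10), and Fgfr4 and Itga8 differed by 2.47 ± 0.12 and 2.91 ± 0.17 from day 14 and by 2.07 ± 0.10 and 1.91 ± 0.15 from day 30.

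Other genes were lower than after bleomycin. Spp1, osteopontin, which macrophages make as well as fibroblasts, was at 6.87 ± 2.83 RPKM after pneumonectomy, against 1118 ± 349 and 427 ± 114 RPKM at days 14 and 30 after bleomycin (-6.89 ± 0.34 and -5.64 ± 0.31). Grem1, an antagonist of BMP ligands chosen after its values were seen, was at 0.585 ± 0.298 RPKM, against 25.1 ± 3.89 and 20.4 ± 7.71 RPKM (-4.84 ± 0.37 and -4.59 ± 0.33). Cthrc1, a marker of fibrotic fibroblasts, differed by -3.13 ± 0.37 and -2.21 ± 0.33. Tnc was lower than at day 14 (-1.79 ± 0.37), and its difference from day 30 was not called (-0.33 ± 0.33, adjusted p = 0.407 in limma). Eln was higher than in both bleomycin groups, by less than its difference from sham, with differences of 0.80 ± 0.32 (adjusted p = 0.0411) and 1.23 ± 0.29 (adjusted p = 0.00327) in limma. Wnt2b and Sfrp4 lay between, above day 14 after bleomycin (2.22 ± 0.29 and 2.13 ± 0.28) and below day 30 (-1.04 ± 0.26 and -1.99 ± 0.25).

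**Figure D4:**
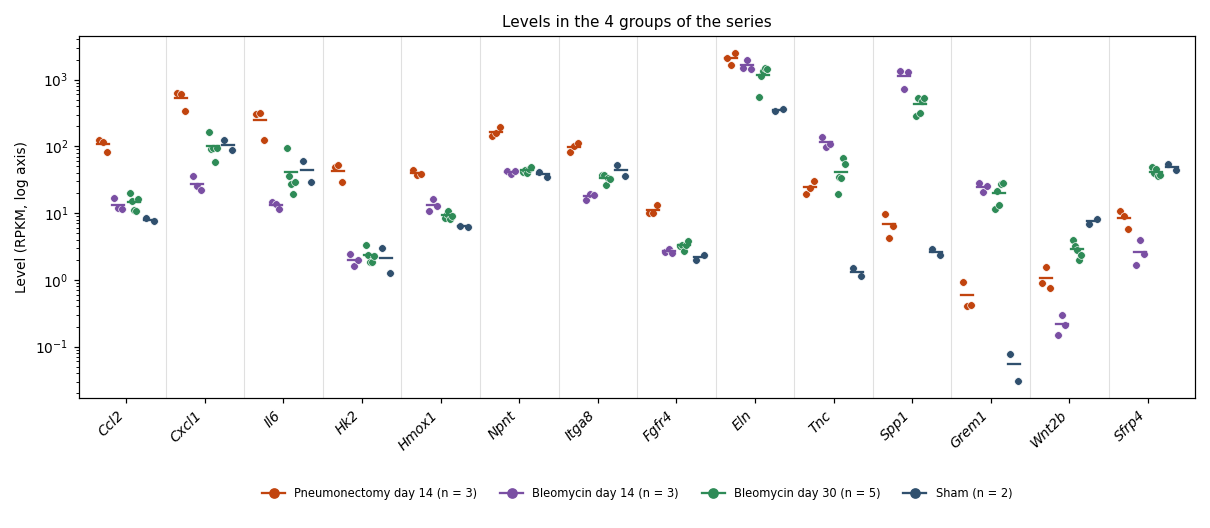
Level of 14 genes in RPKM (log axis) in each library after pneumonectomy (orange), at day 14 (purple) and day 30 (green) after bleomycin and in sham (blue), with bars for group means. From Ccl2 to Fgfr4 the pneumonectomy libraries lie above all other libraries of the series, whereas Spp1 and Grem1 are highest after bleomycin.

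The fibroblast label held against its markers. Of other cell types, T and NK cell and granulocyte markers were low, while smooth muscle, pericyte and, in library A, airway epithelial markers were not. The 13 fibroblast markers were abundant, with a summed level of 6192, 4324 and 4544 RPKM after pneumonectomy, against 4079 and 5322 RPKM in sham. Pericyte and mural markers summed to 187, 174 and 218 RPKM, against 167 and 129.5 RPKM. Of these, 7 of 13 were higher and 1 lower (8 and 2 without library B, 7 and 0 without library C, 7 and 2 on the deposited scale). Their median log2 change was 1.01, and 1.23 and 0.68 without sham replicates 1 and 2. For T and NK cells the sums were 3.06, 4.67 and 2.37 RPKM, against 1.83 and 0.846 RPKM, and for macrophages 66.7, 42.4 and 55.4 RPKM, against 50.8 and 40.6 RPKM, with 2 of 19 markers higher and 3 lower (1 and 1 without sham replicate 2, 1 and 2 without library A, 1 and 3 without library C, 1 and 4 on the deposited scale). Granulocyte markers summed to 1.00, 6.28 and 3.23 RPKM after pneumonectomy, against 14.4 and 1.13 RPKM in sham. In all 5 libraries 13 of 14 T and NK cell markers and 6 of 9 granulocyte markers were under 1 RPKM. Lyz2, the most abundant macrophage marker, was at 27.2, 15.1 and 18.7 RPKM after pneumonectomy, against 19 and 12.5 RPKM in sham and was not called.

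Endothelial markers summed to 82.1, 56.4 and 103 RPKM after pneumonectomy, against 82.5 and 79.1 RPKM in sham, so that the sums overlapped, while 17 of 23 members were higher and 2 lower (16 and 1 without sham replicate 1, 8 and 1 without sham replicate 2, 13 and 1 without library A, 17 and 1 without library B, 14 and 4 on the deposited scale). Cdh5, VE-cadherin, was at 5.72, 2.10 and 6.62 RPKM after pneumonectomy, against 1.39 and 0.607 RPKM in sham (2.33 ± 0.50), a call lost without sham replicate 2 (1.79), and Pecam1 was at 4.57, 2.31 and 5.56 RPKM after pneumonectomy, against 1.81 and 0.797 RPKM in sham (1.83 ± 0.38). Both were chosen after their values were seen. Sele, given above among the largest rises, is an endothelial gene at 7.15, 5.01 and 6.78 RPKM after pneumonectomy, against 0.458 and 0.167 RPKM in sham, and Vcam1 and Icam1 are made by endothelium as well as by fibroblasts. The part of endothelial RNA in their rise was not tested.

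Mesothelial markers were higher in every pneumonectomy library, with sums of 28.6, 21.1 and 57.4 RPKM after pneumonectomy, against 12.4 and 13.4 RPKM in sham, and 7 of 9 members called higher and none lower (5 and 1 without library C, 6 and 1 on the deposited scale). Msln was at 7.55, 5.07 and 17.1 RPKM after pneumonectomy, against 1.10 and 0.362 RPKM in sham (3.79 ± 0.67, and 3.32 without library C). Alveolar epithelial markers summed to 114, 57.5 and 55.5 RPKM, against 31.8 and 19.9 RPKM, higher in every pneumonectomy library. Their median log2 change was 1.53, with 1 of 11 called, and 6 higher and 0 lower with only the 5 compared libraries fitted. In the fit of all 13 libraries, 1 library at day 30 after bleomycin held a sum of 1319 RPKM, against 24.6 to 32.2 RPKM in the others of its group. Its effect on the calls was not tested. Airway epithelial markers summed to 471, 91.1 and 42.9 RPKM, against 52.3 and 38.5 RPKM. The club cell gene Scgb1a1 was at 418, 61.9 and 9.04 RPKM after pneumonectomy, against 1.40 and 7.08 RPKM in sham and was not called. Smooth muscle markers, which contractile fibroblasts share, summed to 1198, 1252 and 1611 RPKM, against 1235 and 611 RPKM, where the sham libraries differed by more than the groups, and 8 of 12 were higher and none lower (2 and 0 without sham replicate 2, 5 and 0 without library A or library B, 4 and 0 without library C, 3 and 0 on the deposited scale).

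**Figure D5:**
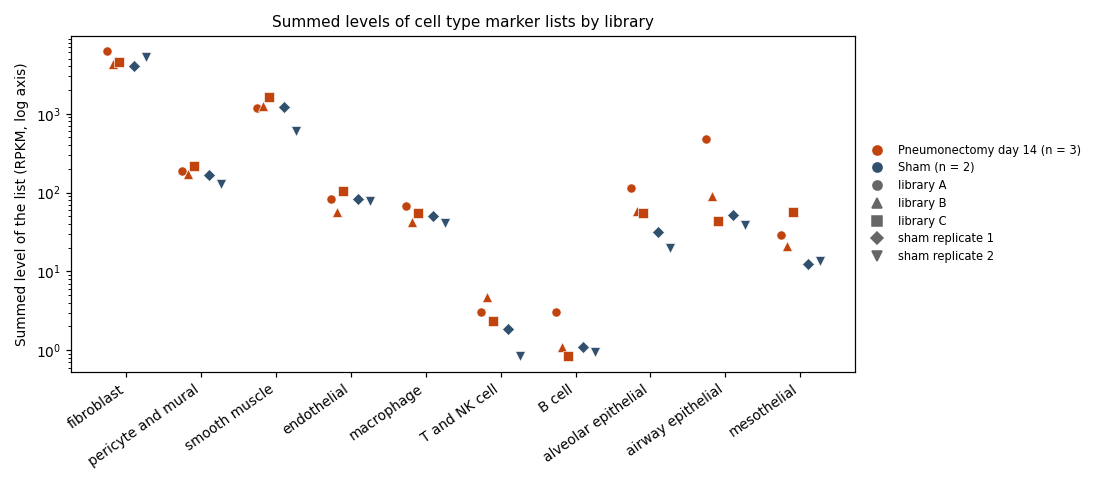
Summed level of 10 cell type marker lists in RPKM (log axis) in each pneumonectomy library (orange, left in each pair) and each sham library (blue, right). Mesothelial sums are higher in all 3 pneumonectomy libraries than in both sham libraries, endothelial and macrophage sums overlap, and library A stands out in the airway epithelial list.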

How the data were processed

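RNA-seq libraries of 13 mouse lung fibroblast samples were analysed, of which 3 after pneumonectomy and 2 from sham mice form the comparison. Values in RPKM were deposited by the authors in 1 table, per the file headers. The build was mm10 (GRCm38), per the submitters' processing notes. The aligner and counting tool are not given in the sources used here. All 13 value columns were used. Depth was estimated from the steps between low values with GENCODE gene lengths, and a median of 87% of low values were whole reads within 0.05 of a read. Mitochondrial genes (37) are listed at 0 in every library.

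Genes were kept that reached 1 RPKM in 2 or more libraries, scaled by trimmed means of log ratios (trims 0.3 and 0.05) and tested on log2(RPKM + 0.1), a scale that understates the change of low genes. limma 3.58.1 in R 4.3.3 fitted all 13 libraries in 1 model of group means, with trended and robust variance, and p-values were adjusted by Benjamini-Hochberg over all 12938 genes. The steps were tested on simulated data. Named genes were taken by rule: the 12 largest called changes in each direction at 5 RPKM or more, up to 6 called and 2 uncalled members of each list, a fixed panel, the 3 most abundant markers of each cell type, the 12 genes with the widest range among pneumonectomy libraries, and all members of 5 short lists. Genes outside it are said to be chosen after their values were seen. The members and the 67 gene lists were chosen with earlier results of these data known. Alternatives changed the pseudocount, filter, scaling, gene length trend, fold threshold, groups fitted and libraries.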

Additional observations from a re-analysis of the deposited data

How the results depend on the processing

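The count of genes called between pneumonectomy and sham, 5430, was 5225 to 6947 with another pseudocount, no filter, another scaling or the length trend removed. It fell to 2699 with a filter of 5 RPKM, which tests fewer genes, to 729 when tested against a 1.5-fold change and to 3533 when only the 5 compared libraries were fitted. With 1 library left out it was 3324 to 5093, and the lowest value, without sham replicate 2, assumes that the remaining sham library varies like the other groups. Against bleomycin at day 14, the count of 9158 was 4373 with the 5 RPKM filter and 3269 against a 1.5-fold change. Against bleomycin at day 30, the count of 7449 was 3509 and 1090 under the same alternatives. With 1 library of either group left out, the day 14 count was 8471 to 8960, and with 1 pneumonectomy library left out, the day 30 count was 6629 to 6944. Of 358 called named genes, 254 kept their call in every alternative that tested them, the 1.5-fold test aside, and none changed sign in any. The 5 RPKM filter and the removal of the length trend left some named genes untested, and these were not counted as lost there. With only the 5 compared libraries fitted, 48 named genes lost their call and 8 gained one. Cxcl12, Col1a1, Gli1, Arntl, Comp, Fbn2, Thbs4 and Wif1 were among those no longer called, and the cause was not tested. No paired analysis was possible because the pneumonectomy columns carry no replicate number. With 2 sham libraries, which differed in sex-linked, immediate-early and smooth muscle genes, small changes rest on few values, and levels near 0.1 RPKM depend on the pseudocount.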

Other observations

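The pneumonectomy libraries differed among themselves in a few groups of genes. Library C was highest in genes of mesothelium and connective tissue. Thbs4, a thrombospondin of tendon and muscle, was at 3.12, 0.900 and 15.5 RPKM after pneumonectomy, against 0.306 and 0.207 RPKM in sham, and Upk3b, a mesothelial marker, at 5.47, 3.51 and 12.7 RPKM after pneumonectomy, against 0.757 and 0.646 RPKM in sham. Apod, a lipid carrier of fibroblasts, was at 24.8, 15.7 and 52.5 RPKM after pneumonectomy, against 23.3 and 35.3 RPKM in sham, and Col6a5, a collagen VI chain, at 5.04, 2.83 and 9.31 RPKM after pneumonectomy, against 1.25 and 3.03 RPKM in sham. Library A was highest in others. Cytl1, a secreted protein of cartilage, was at 14.2, 2.91 and 6.03 RPKM after pneumonectomy, against 1.02 and 1.75 RPKM in sham, and Chad, another cartilage gene that was chosen after its values were seen, at 5.30, 0.639 and 0.933 RPKM after pneumonectomy, against 0.335 and 0.248 RPKM in sham. Wif1, a secreted WNT inhibitor, was at 9.21, 1.68 and 4.35 RPKM after pneumonectomy, against 1.04 and 0.401 RPKM in sham, and the acute-phase gene Hp, haptoglobin, at 11.9, 2.52 and 2.85 RPKM after pneumonectomy, against 0.804 and 1.04 RPKM in sham. In library A these genes stood together with the cartilage collagens and the club cell gene Scgb1a1.

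The ribosomal protein gene Rps27 and its near-identical copy Rps27rt had unlike levels in library C, where Rps27 was lowest and Rps27rt highest of the 5 libraries. Rps27 was at 138, 129.8 and 34.7 RPKM after pneumonectomy, against 181 and 179 RPKM in sham, and Rps27rt at 6.49, 6.62 and 36.5 RPKM after pneumonectomy, against 8.46 and 8.62 RPKM in sham. Reads of the pair cannot be assigned with certainty, so both values are uncertain. The entry with the highest value in the table, the non-coding Gm23935, was chosen after its values were seen. It was at 11589, 10522 and 20052 RPKM after pneumonectomy, against 8196 and 11927 RPKM in sham, and library C was the highest and sham replicate 1 the lowest.

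Imprinted growth genes and HOX genes, which encode body position, were called in both directions. Of 15 imprinted genes 3 were higher and 2 lower (3 and 0 without sham replicate 2, 2 and 5 on the deposited scale), near the shares of all tested genes, and of 12 HOX genes 1 was higher and 2 lower (1 and 1 without sham replicate 2, library A or library B, 1 and 6 on the deposited scale). Hoxa5, which patterns the lung, was the higher one (1.03 ± 0.12). Genes of neonatal alveolar myofibroblasts, the contractile cells that shape new alveoli, had 9 of 22 members higher and 2 lower (6 and 3 on the deposited scale). Of the class I antigen presentation genes 3 of 15 were higher and 1 lower (1 and 0 without sham replicate 2, 1 and 1 without library A, 0 and 3 on the deposited scale), so that the direction of this list depends on the scaling.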
